A study of Mus musculus with 4 samples.

Results

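The interleukin 1 family genes described here are 9 transcripts taken by symbol from the 31053 genes of the deposited matrices. They are the ligands Il1a, Il1b and Il1f9, the receptor antagonist Il1rn, the receptor chains Il1r1 and Il1rap, the decoy receptor Il1r2, and the ligand Il18 with its binding protein Il18bp. The cells were sorted for the leukocyte marker CD45 out of B6KPC3 tumours grown in the pancreas of C57BL/6 mice, and were profiled by droplet single-cell RNA sequencing. AT38 mice received 30 mg/kg of the compound daily by intraperitoneal injection, dissolved in 1% carboxymethyl cellulose, and vehicle mice received the carboxymethyl cellulose without it. Dosing began when tumours were 7 days old and lasted 7 days. Both groups had 2 libraries made from 4 pooled mice apiece, so p-values measure the spread between pools and not between mice. AT38 is known here by its code name alone, and no genotype beyond the strain is given for the mice.

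Interleukin 1 alpha and beta signal through the receptor chain encoded by Il1r1 together with the accessory chain encoded by Il1rap, and in tumours they are known as drivers of myeloid inflammation. Signalling is restrained by the receptor antagonist, which occupies the receptor without activating it, and by the decoy receptor encoded by Il1r2, which binds ligand but lacks a signalling domain. Il1f9 encodes interleukin 36 gamma, which uses the accessory chain with a receptor of its own, and the product of Il18bp captures interleukin 18.

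Total UMIs (unique molecules counted per gene and cell) were 30232623 and 24294215 in the AT38 libraries and 24875092 and 34386076 in the vehicle libraries. After filtering, 14240 cells remained, with median UMIs per cell of 4014 and 4152.5 in AT38 and 3579.5 and 3005 in vehicle. Libraries shared 0 to 8 cell barcodes per pair. Cell classes were rebuilt from marker genes, with 73 genes of the pathway lists, the 9 members among them, kept out of the clustering, and their names mean only that a cluster resembles a type. Neutrophil-like cells (4482 cells) made up 27.03% and 26.9% of the kept cells in AT38 and 35.2% and 35.5% in vehicle. Mononuclear phagocytes, that is monocyte-like and macrophage-like cells, numbered 2050, dendritic-like cells 1611 and T cell-like cells 3150. Levels are given as CPM, UMIs of a gene per 1000000 UMIs of the class in a library. The chemistry counts 3′ ends, so transcript length does not enter a level.

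The promoters of 5 members are shown because these genes carry the comparisons below: Il1f9 and Il1rap were lower with AT38 in neutrophil-like cells, Il18bp was higher in mononuclear phagocytes, and Il1b and Il1rn were the most abundant ligand and its antagonist. The sequences are from RefSeq (GRCm38.p6), 250 bases before to 50 bases after an annotated start, and all 9 members had an entry. Capitals mark matches on either strand to the letters GGGNNNNNCC (kappaB), GAAANNGAAA (ISRE), TTCNNNGAA (GAS) or TGANTCA (AP-1). Adjoining matches run together in one stretch of capitals.

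Il1f9 promoter, chr2:24186226-24186525, plus strand: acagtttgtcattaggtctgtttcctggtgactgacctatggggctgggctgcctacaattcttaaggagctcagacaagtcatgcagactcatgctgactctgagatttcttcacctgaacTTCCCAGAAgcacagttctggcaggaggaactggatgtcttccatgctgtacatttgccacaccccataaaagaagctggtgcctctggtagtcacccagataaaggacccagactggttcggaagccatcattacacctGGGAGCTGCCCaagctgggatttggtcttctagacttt

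Il1rap promoter, chr16:26581455-26581754, plus strand: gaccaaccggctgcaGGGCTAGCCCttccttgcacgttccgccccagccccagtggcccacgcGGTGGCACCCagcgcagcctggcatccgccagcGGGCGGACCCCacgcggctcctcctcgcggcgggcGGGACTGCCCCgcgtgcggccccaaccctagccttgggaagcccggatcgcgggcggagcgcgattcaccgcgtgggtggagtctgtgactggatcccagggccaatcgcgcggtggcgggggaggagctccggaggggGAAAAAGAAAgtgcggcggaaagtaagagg

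Il18bp promoter, chr7:102018183-102018482, minus strand: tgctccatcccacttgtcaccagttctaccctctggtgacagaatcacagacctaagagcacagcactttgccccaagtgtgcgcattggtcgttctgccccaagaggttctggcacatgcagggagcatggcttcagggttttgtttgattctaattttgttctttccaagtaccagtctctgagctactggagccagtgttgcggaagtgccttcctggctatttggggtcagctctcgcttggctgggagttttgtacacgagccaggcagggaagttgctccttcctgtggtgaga

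Il1b promoter, chr2:129371090-129371389, minus strand: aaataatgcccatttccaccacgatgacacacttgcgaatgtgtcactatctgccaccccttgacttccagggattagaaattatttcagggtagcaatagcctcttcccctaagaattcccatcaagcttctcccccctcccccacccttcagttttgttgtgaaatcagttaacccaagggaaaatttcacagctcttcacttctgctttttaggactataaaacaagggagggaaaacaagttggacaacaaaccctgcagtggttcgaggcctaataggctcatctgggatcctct

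Il1rn promoter, chr2:24336610-24336909, plus strand: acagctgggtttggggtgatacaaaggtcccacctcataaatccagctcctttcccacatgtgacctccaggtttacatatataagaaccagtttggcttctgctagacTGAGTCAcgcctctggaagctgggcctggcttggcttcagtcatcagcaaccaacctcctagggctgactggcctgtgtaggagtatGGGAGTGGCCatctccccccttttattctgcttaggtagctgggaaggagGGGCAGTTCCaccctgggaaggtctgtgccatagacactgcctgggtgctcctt

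Over 32851 promoters of this length, 50.8% held the kappaB letters, 3.44% the ISRE letters, 8.3% the GAS letters and 7.81% the AP-1 letters. The Il1f9 promoter held the GAS letters at position -128, counted from 0 at the start, and a kappaB stretch just after the start. The Il1rap promoter held 6 overlapping or separate kappaB matches and the ISRE letters at position 20. The Il1rn window printed, the first of 3 annotated starts, held 2 kappaB matches and the AP-1 letters at position -141, and the windows of its other starts held 1 kappaB match and no AP-1 letters, while the windows of Il1b and Il18bp held none of these letters. Matches are descriptions of the letters and say nothing of binding. In GENCODE M21 coordinates (GRCm38), Il1f9 (chr2:24186476-24193568) and Il1rn (chr2:24336853-24351494) lie on the plus strand of chromosome 2, and Il1a (chr2:129299610-129309972) and Il1b (chr2:129364570-129371139) on its minus strand. Il1b overlaps the antisense gene Il1bos, which held 684 UMIs against 259267 of Il1b, and Il18bp overlaps Numa1 on the other strand, which held 7921 UMIs. Whether strand entered the counting is not given in the sources used here.

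Neutrophil-like cells carried most of the Il1a, Il1b, Il1f9 and Il1rn transcripts. They held 59.6% of all Il1b UMIs, 72.3% of Il1a, 89.3% of Il1f9 and 69.0% of Il1rn, from 4482 of the 14240 kept cells. Il1b averaged 13519 ± 1217 CPM there (SD, n = 4 libraries), against 3336 ± 620 CPM in monocyte-like, 2831 ± 412 CPM in macrophage-like and 2213 ± 221 CPM in cDC2-like cells. The monocyte-like and macrophage-like ranges over libraries overlapped, at 2612 to 4029 and 2442 to 3274 CPM, and the cDC2-like libraries ended just under them, at 1910 to 2439 CPM. In cDC1-like cells Il1b averaged 816 ± 118 CPM. B cell-like cells, which are not known for Il1b, held 46.2 and 214 CPM in AT38 and 63.6 and 69.3 CPM in vehicle, and 112 of their 417 Il1b UMIs sat in 1 cell.

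Il1a, a ligand known as an alarm signal of dying cells, averaged 1990 ± 247 CPM in neutrophil-like cells and 377 CPM in macrophage-like cells. Il1f9 was more restricted, at 516 ± 231 CPM in neutrophil-like cells and at most 24.5 CPM in any other named class. Il1rn averaged 3393 ± 356 CPM in neutrophil-like, 699 ± 109 CPM in macrophage-like and 407 ± 68.0 CPM in monocyte-like cells, and stood at 25.1 ± 11.6 CPM in cDC1-like cells. The order of classes was thus the same for Il1a and Il1rn at the top, with neutrophil-like above macrophage-like above monocyte-like cells, while Il1b in the monocyte-like and macrophage-like cells overlapped.

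**Figure D1:**
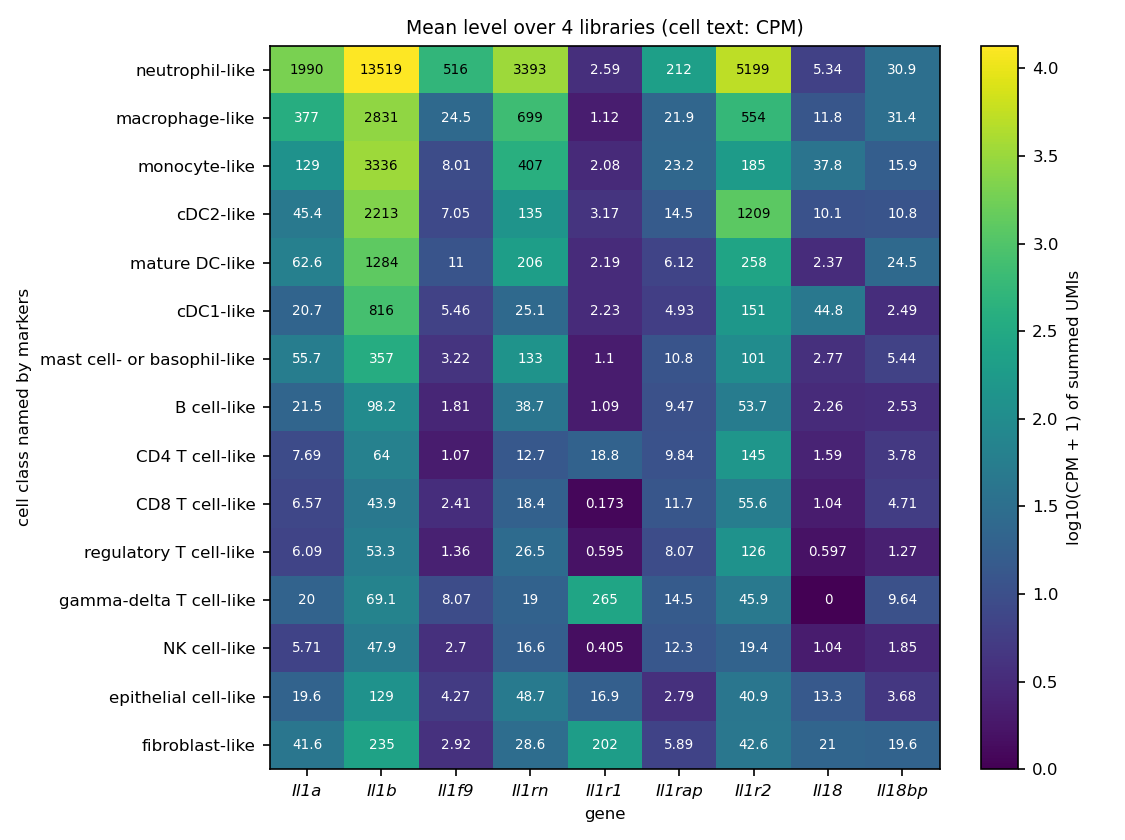
Mean level of each member (columns) in 15 cell classes (rows) over the 4 libraries; the color is log10(CPM + 1) and the text in each cell is the CPM. Neutrophil-like cells hold the highest value for 6 of the 9 genes, Il1r1 is highest in gamma-delta T cell-like and fibroblast-like cells, and Il18 in cDC1-like and monocyte-like cells.

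The signalling receptor chain showed a different distribution from the ligands. Il1r1 was at 2.59 CPM in neutrophil-like cells and 1.12 CPM in macrophage-like cells, and only 23 of 4482 neutrophil-like cells held a UMI of it. Its highest levels were in gamma-delta T cell-like cells, a sub-cluster of 102 cells led by Cd163l1, Blk and Trdc, with 277 and 414 CPM in AT38 and 181 and 188 CPM in vehicle. A sub-cluster of CD4 T cell-like cells led by Il17f and Il17a, which encode interleukin 17 cytokines, held 77.1 and 75.0 CPM in AT38 and 83.2 and 27.4 CPM in vehicle. Fibroblast-like cells, of which the CD45 enrichment left 38, averaged 202 ± 69.3 CPM, and 50.3% of their Il1r1 UMIs came from 5 cells. CD8 T cell-like cells stood at 0.173 CPM.

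Il1r2, the decoy, was highest in neutrophil-like cells at 5199 ± 475 CPM and second in cDC2-like cells at 1209 ± 255 CPM. One cDC2-like cluster of 459 cells held 1820 and 2017 CPM in AT38 and 1697 and 1343 CPM in vehicle. Il1rap, the shared accessory chain, averaged 212 ± 34.3 CPM in neutrophil-like cells and 21.9 CPM in macrophage-like cells. Il18 was carried by cDC1-like cells at 44.8 ± 11.7 CPM and by monocyte-like cells at 37.8 ± 12.4 CPM, and was at 5.34 CPM in neutrophil-like cells. Il18bp averaged 30.9 ± 2.77 CPM in neutrophil-like and 31.4 CPM in macrophage-like cells.

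Shares of cells with a UMI gave the same picture once each cell was thinned to 1000 UMIs. Il1b was then found in 97.3% of neutrophil-like cells in AT38 and 96.5% in vehicle (means of 2 libraries), and in 6.25% and 7.47% of B cell-like cells, which serve as background. Without thinning the shares in neutrophil-like cells were 98.3% and 97.9%, and in B cell-like cells 15.4% and 20.4%. The median depth was 2137 UMIs in neutrophil-like cells and 3052 UMIs in B cell-like cells, and 106 AT38 and 185 vehicle neutrophil-like cells were too shallow to thin. Il1r2 was found in 93.3% of thinned neutrophil-like cells in AT38 and 89.8% in vehicle, and Il1rn in 83.7% and 78.6%. Nearly all of these cells held Il1b, so the other members were read by whether a thinned cell held Il1a, Il1r2 or Il1rap (means over 4 libraries). Il1rn was found in 86.4% of cells with Il1a and in 74.1% of cells without it. Il1f9 ran the other way, in 26.2% of cells with Il1a and 32.1% without, and in 27.5% of cells with Il1r2 and 41.0% without. With Il1rap it was found in 35.5% of cells, and without Il1rap in 27.02%.

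The effect of AT38 was tested class by class with edgeR's quasi-likelihood test on UMIs summed per library, with Benjamini-Hochberg adjustment over all genes tested in the class. In neutrophil-like cells 8 members passed the filter on low counts, all but Il1r1. Il1f9 and Il1rap were lower with AT38, while Il1a, Il1b, Il1rn, Il1r2, Il18 and Il18bp did not pass the test. So 2 of 8 members were called, beside 5.52% of the 8400 genes tested, and both were lower, beside 3.86% of genes called lower.

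Among the ligands, Il1f9 stood at 288 and 353 CPM in the AT38 libraries and at 764 and 658 CPM in the vehicle libraries. Both AT38 libraries lay well under both vehicle libraries. The log2 fold change was -1.27 ± 0.10 (model SE, edgeR adjusted p = 2.7e-08), and it passed in each alternative fit of this class. After thinning, 21.5% and 21.9% of neutrophil-like cells held Il1f9 in AT38 and 36.1% and 35.4% in vehicle. Without thinning the means were 29.5% and 49.3%, and in thinned B cell-like cells 0% and 0.524%.

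Il1b, the most abundant ligand, stood at 13801 and 12537 CPM in AT38 and at 12613 and 15126 CPM in vehicle. These groups overlapped, with the AT38 libraries inside the range of the vehicle libraries or just under it, and the log2 fold change of -0.20 ± 0.09 did not pass (edgeR adjusted p = 0.213). Without vehicle 1 it passed, at -0.33 (edgeR adjusted p = 0.0460). Il1a stood at 2177 and 2228 CPM in AT38 and at 1804 and 1753 CPM in vehicle, without overlap. Its fitted difference was 0.19 ± 0.08 (edgeR adjusted p = 0.192). In neutrophil-like cells, plain CPM values of genes of at least 10 CPM were shifted upward in AT38 by a median of 0.11 on the log2 scale, which the fit removes.

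Il1rn, the antagonist, stood at 3699 CPM in both AT38 libraries and at 3142 and 3032 CPM in vehicle, and its fitted difference was 0.14 ± 0.08 (edgeR adjusted p = 0.354). The groups did not overlap in plain CPM, as was the case for 50.8% of the genes tested in this class. Il1r2 stood at 5638 and 5443 CPM in AT38 and at 4549 and 5164 CPM in vehicle, with a fitted difference of 0.07 ± 0.08. Neither the antagonist nor the decoy therefore passed. Il18bp gave -0.04 ± 0.18 and Il18 gave 0.27 ± 0.42 from 58 UMIs in all.

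Il1rap stood at 172 and 196 CPM in AT38 and at 248 and 232 CPM in vehicle. Both AT38 libraries were lower, and the log2 fold change was -0.50 ± 0.10 (edgeR adjusted p = 0.00204). The call ended without AT38 1, where the fitted value was -0.41. It also ended with at least 500 genes per cell (-0.56, edgeR adjusted p = 0.143) and with no doublet removal (-0.59, edgeR adjusted p = 0.0632). In these last 2 settings the neutrophil-like class also took in a cluster of 65 and of 254 cells. Cd8a, Cd8b1 and Lag3 were among the leading genes of that cluster, and its part in the lost call was not tested.

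**Figure D2:**
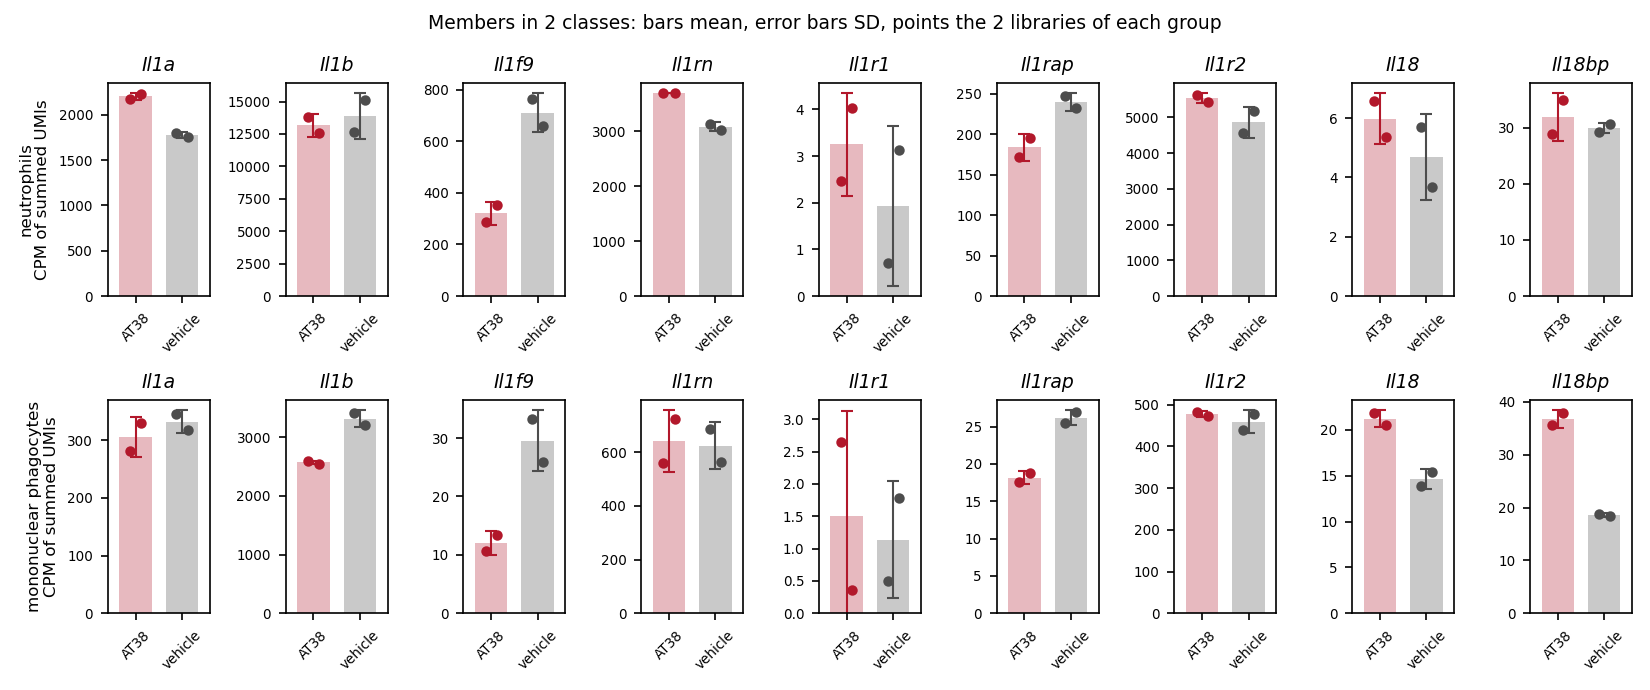
CPM of the 9 members in neutrophil-like cells (upper row) and mononuclear phagocytes (lower row); points are the 2 libraries of each group, bars their mean and error bars the SD. Il1f9 is lower in both AT38 libraries in both rows, and Il18bp is higher with AT38 in the lower row at 35.5 and 37.9 CPM.

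Neutrophil-like cells fell into 6 clusters, and their shares differed between the groups. A cluster with Siglecf, Il23a and Rcan1 among its leading genes (cluster c8) made up 40.2% and 40.1% of neutrophil-like cells in AT38 and 23.8% and 28.2% in vehicle. One led by Rdh12 and Lrg1 (c3) made up 15.5% and 14.7% in AT38 and 24.9% and 25.5% in vehicle. These clusters differ in the members: Il1f9 averaged 845 CPM in c3 and 210 CPM in c8, Il1rap 368 and 120 CPM, and Il1a 509 and 2846 CPM.

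Within clusters, Il1f9 had a negative fold change in all 6 and passed in 3 of them. In c2, led by Acod1, Cxcl3 and G0s2, it stood at 463 and 546 CPM in AT38 and at 1037 and 933 CPM in vehicle, a log2 fold change of -0.96 ± 0.11 (edgeR adjusted p = 3.5e-09, 2.72% of genes called in c2). In c3 it stood at 669 and 659 CPM in AT38 and at 1025 and 1027 CPM in vehicle (-0.65 ± 0.13, edgeR adjusted p = 0.0177, 0.931% called). In c8 the values were 129 and 192 CPM in AT38 and 320 and 200 CPM in vehicle (-0.69 ± 0.15, edgeR adjusted p = 0.000726, 1.3% called). The AT38 libraries lay under the vehicle libraries in each of these 3 clusters, and in c8 by little between AT38 2 and vehicle 2. The same held for 1105 of 4854 genes tested in c2, 693 of 3544 in c3 and 1149 of 6843 in c8. In c7, c9 and c27 the fold changes were -0.90, -1.69 and -0.65 and did not pass, where 0.0408%, 0.101% and 0% of genes were called.

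Il1rap behaved otherwise within clusters. Its log2 fold change was -0.03 ± 0.14 in c2 and -0.08 ± 0.17 in c8, and -0.42 ± 0.16 in c3 and -0.75 ± 0.39 in c7. In c9 it was 0.13 ± 0.30 and in c27 -1.11 ± 0.67, and it passed in none of the 6. Il1rn gave 0.31 ± 0.09 in c2 (edgeR adjusted p = 0.0573), and Il1a gave 0.01 in c2, 0.04 in c8 and -0.58 ± 0.14 in c3 (edgeR adjusted p = 0.0791). In c7, c9 and c27 Il1a gave -0.17, 0.16 and 1.83 ± 0.48 (edgeR adjusted p = 0.435 in c27), and it passed in no cluster. Il1b ranged from -0.48 in c7 to 0.58 in c27, a cluster of 66 cells led by the granule genes Ngp, Camp and Ltf, and passed in none. The neutrophil marker list, 10 of 10 genes present, summed to 63317 and 64035 CPM in AT38 and to 73136 and 77856 CPM in vehicle over all neutrophil-like cells, with 7 of its genes lower. The part of cluster shares in the Il1rap result was not tested beyond these values.

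**Figure D3:**
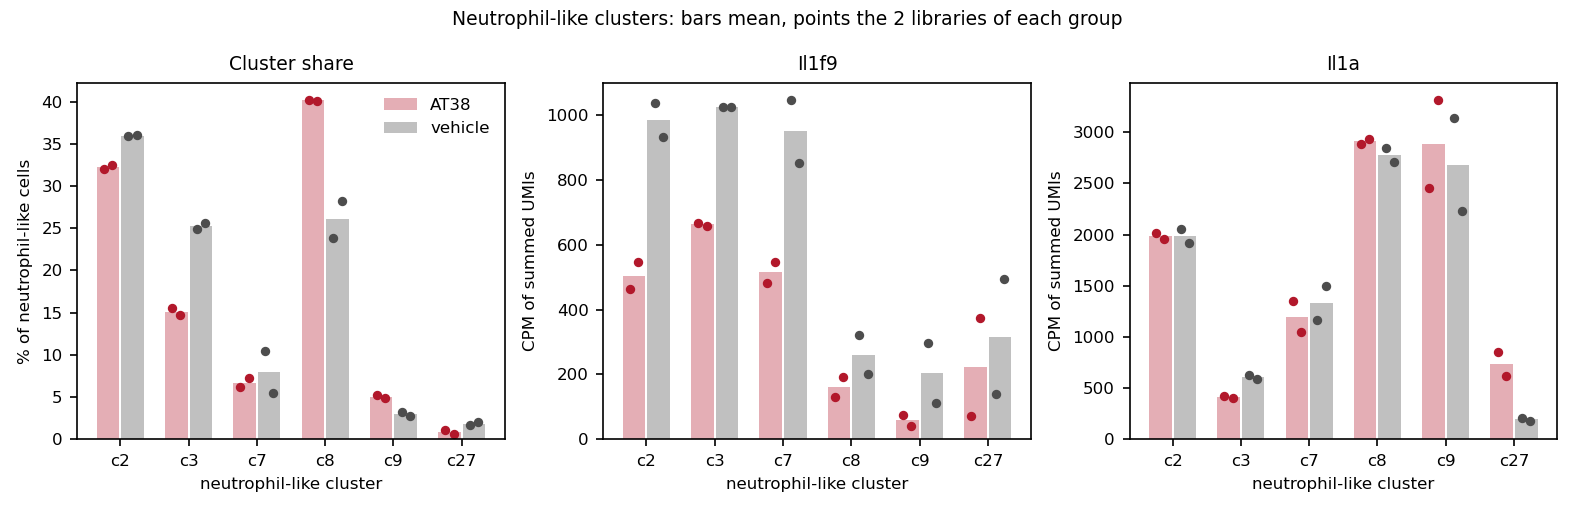
Neutrophil-like clusters: share of neutrophil-like cells in percent (left), Il1f9 CPM (middle) and Il1a CPM (right), with AT38 beside vehicle; bars are means and points the 2 libraries. Il1f9 is lower with AT38 in c2, c3 and c7, the clusters with most of it, and c8 takes a larger share with AT38.

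In mononuclear phagocytes 2 of 8 tested members were called, Il1f9 lower and Il18bp higher, beside 1.3% of 10733 genes. Il18bp, the interleukin 18 antagonist, stood at 35.5 and 37.9 CPM in AT38 and at 18.8 and 18.3 CPM in vehicle. Both AT38 libraries lay well above both vehicle libraries, at a log2 fold change of 0.97 ± 0.16 (edgeR adjusted p = 0.0107). The value rests on 470 UMIs in 278 cells. It did not pass without vehicle 1 (0.107), without vehicle 2 (0.133), without AT38 2 (0.0555) or with DESeq2 (0.0535), with fold changes between 0.90 and 0.99.

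Among the phagocyte clusters Il18bp passed in the Arg1-led macrophage-like cluster c10, where it stood at 47.1 and 45.1 CPM in AT38 and at 17.9 and 19.7 CPM in vehicle (1.27 ± 0.19, edgeR adjusted p = 0.0229, 0.52% of genes called). In the Folr2-bearing cluster c1 it stood at 27.8 and 41.1 CPM in AT38 and at 36.6 and 27.4 CPM in vehicle, and in monocyte-like cells at 16.8 and 22.0 CPM in AT38 and 16.3 and 8.60 CPM in vehicle. The difference did not pass in either of them (0.265% of genes called in c1). Cluster c10 made up 32.01% and 28.3% of mononuclear phagocytes in AT38 and 44.2% and 42.4% in vehicle. The macrophage marker list, 10 of 10 genes present, summed to 10939 and 11844 CPM in AT38 and to 7013 and 8434 CPM in vehicle, with 9 genes higher, and its part in these results was not tested.

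Il18 itself stood at 21.8 and 20.5 CPM in AT38 and at 13.9 and 15.4 CPM in vehicle in mononuclear phagocytes, a difference of 0.52 ± 0.19 that did not pass (edgeR adjusted p = 0.3001). In monocyte-like cells, which held 152 of its 316 phagocyte UMIs, it stood at 52.3 and 44.0 CPM in AT38 and at 27.1 and 27.9 CPM in vehicle.

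Il1f9 stood at 10.6 and 13.5 CPM in AT38 phagocytes and at 33.2 and 25.9 CPM in vehicle phagocytes, with no overlap (-1.32 ± 0.21, edgeR adjusted p = 0.00970). The call ended without vehicle 1 (0.127), without AT38 1 (0.114) and with up to 20% mitochondrial UMIs (0.0596). Neutrophil transcripts were present in these cells. Per 1000 UMIs of S100a8 and S100a9, which encode the neutrophil calgranulins, phagocytes held 4.98 and 7.17 Il1f9 UMIs in AT38 and 16.9 and 14.8 in vehicle. Neutrophil-like cells held 5.45 and 6.52 in AT38 and 12.3 and 9.97 in vehicle. For Il1b the same ratio was 1216 and 1356 in AT38 phagocytes and 1739 and 1833 in vehicle phagocytes, against 203 to 261 in neutrophil-like cells. The neutrophil marker list in phagocytes, 10 of 10 genes present, summed to 2944 and 2772 CPM in AT38 and to 3059 and 2624 CPM in vehicle, and its part in the Il1f9 result was not tested.

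Il1b stood at 2589 and 2545 CPM in AT38 phagocytes and at 3412 and 3208 CPM in vehicle phagocytes. The libraries did not overlap, as for 40.3% of genes in this class, and the difference of -0.37 ± 0.08 missed the threshold (edgeR adjusted p = 0.0548). It passed with no doublet removal (0.0251) and with no filter on low counts (0.00135). Il1rn gave 0.04 ± 0.16, Il1a -0.12 ± 0.12, Il1r2 0.05 ± 0.10 and Il1rap -0.55 ± 0.17 (edgeR adjusted p = 0.230), and none of these passed. Il1r1, with 27 UMIs, was too low to test.

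In dendritic-like cells 0 of 9 members passed, beside 0.0356% of 11229 genes (838 genes had an unadjusted p under 0.05, and DESeq2 called 21 genes). Il1f9 gave -1.92 ± 0.53, from 194 UMIs of which 35.6% lay in 5 cells, and the neutrophil marker list in these cells summed to 596 and 340 CPM in AT38 and to 1163 and 1342 CPM in vehicle, with all 10 genes lower. Il1b gave -0.09 ± 0.07, Il1rn -0.19 ± 0.10, Il1r1 0.34 ± 0.42, Il1rap -0.49 ± 0.22 and Il1r2 0.30 ± 0.17. Il18 gave 0.59 ± 0.23 and Il18bp 0.33 ± 0.19. Il1a gave -0.46 ± 0.27 and was called without AT38 1 (-0.97, edgeR adjusted p = 0.00345), and Il1f9 with no filter on low counts (edgeR adjusted p = 9.0e-08).

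In T cell-like cells 0 of 7 tested members passed, beside 0.145% of 10356 genes (712 genes had an unadjusted p under 0.05, and DESeq2 called 11). Il1r1, the receptor chain, stood at 15.7 and 12.7 CPM in AT38 and at 13.3 and 8.31 CPM in vehicle, with overlap (0.46 ± 0.25). Il1b stood at 49.2 and 29.1 CPM in AT38 and at 73.0 and 65.2 CPM in vehicle (-0.81 ± 0.22, edgeR adjusted p = 0.432), and it was called without AT38 1 (-1.21, edgeR adjusted p = 3.4e-05) and with no filter on low counts (-0.80, edgeR adjusted p = 1.3e-06). These Il1b levels overlapped those of B cell-like cells given above, and the neutrophil marker list in T cell-like cells summed to 370 and 337 CPM in AT38 and to 518 and 428 CPM in vehicle. Il1a gave -0.18 ± 0.30, Il1rn -0.48 ± 0.19, Il1rap 0.26 ± 0.24, Il1r2 -0.22 ± 0.12 and Il18bp -0.94 ± 0.42, while Il1f9 (28 UMIs) and Il18 (18 UMIs) were too low to test.

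Over all kept cells, where fewer cells of a class and less RNA per cell cannot be told apart, 2 of 9 members were called, both lower, beside 1.61% of 14498 genes called in either direction and 1.26% called lower. Il1f9 stood at 31.0 and 40.2 CPM in AT38 and at 112 and 101 CPM in vehicle (-1.58 ± 0.14, edgeR adjusted p = 0.0213). Il1rap stood at 26.2 and 30.3 CPM in AT38 and at 43.9 and 44.2 CPM in vehicle (-0.64 ± 0.09, edgeR adjusted p = 0.0224). Both genes were lower in each AT38 library than in each vehicle library, as were 3454 of the 14498 genes tested. When every library was weighted to the same class shares, Il1f9 gave -1.16 (edgeR adjusted p = 0.171) and Il1rap -0.33 (0.208), and without vehicle 1 Il1f9 gave -1.50 (0.0712).

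Il1b over all kept cells stood at 2373 and 2114 CPM in AT38 and at 2793 and 3321 CPM in vehicle (-0.44 ± 0.10, edgeR adjusted p = 0.101), and it was called without vehicle 1 (edgeR adjusted p = 0.0318), with no filter on low counts (edgeR adjusted p = 0.0168) and by DESeq2 (adjusted p = 0.000363). DESeq2 also called Il1rn (adjusted p = 0.0465). Il1rn gave -0.19 ± 0.06, Il1a -0.17 ± 0.06 and Il1r2 -0.08 ± 0.06, and at equal class shares these became 0.16, 0.19 and 0.19. For these 3 genes the sign in the whole suspension thus turned at equal class shares. Il1r1 gave 0.32 ± 0.14, Il18 0.21 ± 0.14 and Il18bp 0.25 ± 0.12, and none of them passed.

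**Figure D4:**
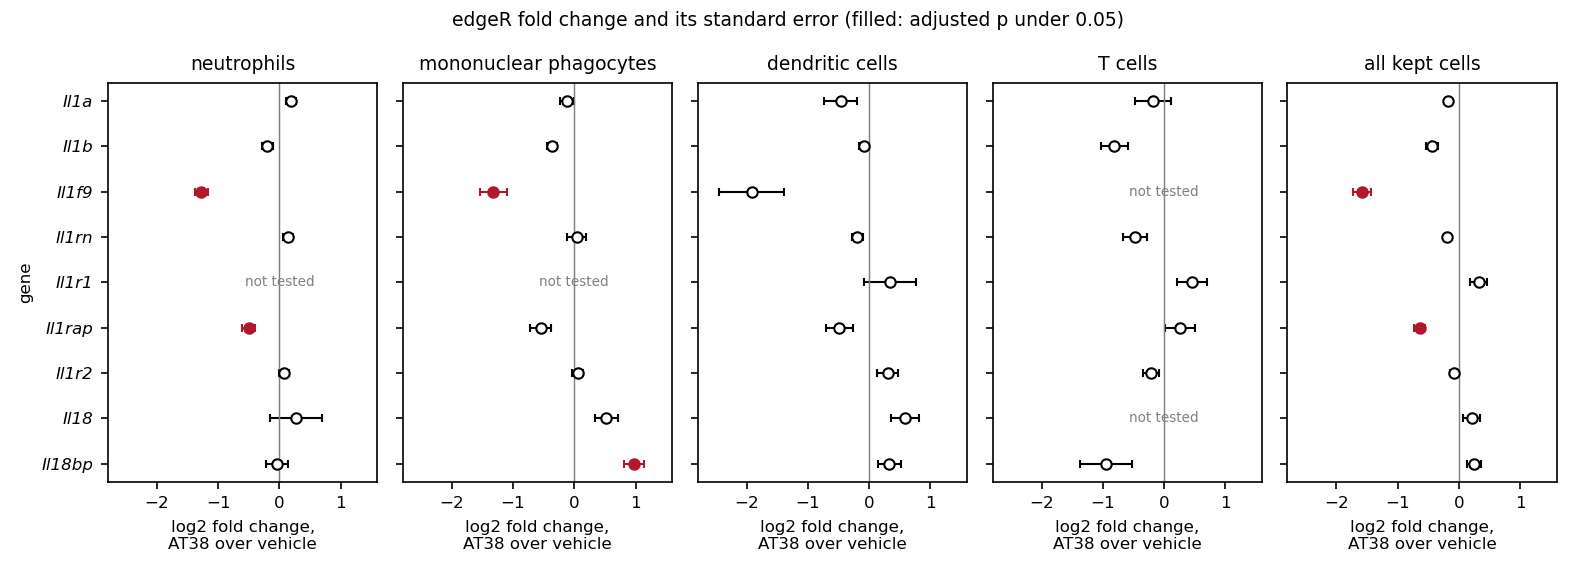
Log2 fold change (AT38 over vehicle, horizontal axis) of each member with its standard error in 4 cell classes and in all kept cells; filled points have an edgeR adjusted p under 0.05. Il1f9 is filled in neutrophil-like cells, mononuclear phagocytes and all kept cells, Il1rap in neutrophil-like and all kept cells, and Il18bp in mononuclear phagocytes.

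Whether a change differed between neutrophil-like cells and mononuclear phagocytes was tested by the interaction of treatment and class, with a term for every library. Il18bp was the single member called, beside 1.53% of 10714 genes, with -0.04 in neutrophil-like cells, 0.97 in phagocytes and a difference of -1.02 ± 0.24 (edgeR adjusted p = 0.0142). Without vehicle 2 the adjusted p was 0.151 and without AT38 1 it was 0.0563, and without AT38 2 Il1a was called as well. For Il1f9 the difference was 0.03 ± 0.18 (edgeR adjusted p = 0.972), and for Il1b 0.19 ± 0.12 (edgeR adjusted p = 0.532).

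The balance of antagonist and agonist was taken within each library, as Il1rn UMIs per UMI of Il1a and Il1b together. In neutrophil-like cells it was 0.232 and 0.250 in AT38 and 0.218 and 0.180 in vehicle. In mononuclear phagocytes it was 0.195 and 0.251 in AT38 and 0.182 and 0.159 in vehicle. Both AT38 libraries were above both vehicle libraries in each class, with log2 differences of 0.28 and 0.37, and the exact two-sided permutation p was 0.333, the smallest that 2 against 2 libraries can give.

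In monocyte-like cells the balance was 0.145 and 0.165 in AT38 and 0.0953 and 0.0840 in vehicle (log2 difference 0.79, exact permutation p = 0.333). In cDC1-like cells it was 0.00985 and 0.0394 in AT38 and 0.0386 and 0.0334 in vehicle, a log2 difference of -0.87 (exact permutation p = 1). The groups overlapped, and AT38 1, with 13 Il1rn UMIs, lay far below the other libraries. In cDC2-like cells the balance was 0.0649 and 0.0618 in AT38 and 0.0580 and 0.0555 in vehicle, and in mature DC-like cells 0.146 and 0.126 in AT38 and 0.197 and 0.152 in vehicle, where AT38 was the lower. Agonist UMIs thus outnumbered antagonist UMIs in every class measured. The 9 values of this ratio by class and the 5 of the ratios below all had an exact permutation p of 0.333 or 1, so no difference could pass.

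For interleukin 18 the phagocytes held 1.63 and 1.84 Il18bp UMIs per Il18 UMI in AT38 and 1.36 and 1.19 in vehicle (log2 difference 0.45, exact permutation p = 0.333). The decoy outnumbered the signalling chain: over all kept cells there were 128 and 123 Il1r2 UMIs per Il1r1 UMI in AT38 and 169 and 165 in vehicle. In T cell-like cells the ratio was 4.03 and 5.15 in AT38 and 6.58 and 7.97 in vehicle. In both cell sets the AT38 libraries were the lower, with log2 differences of -0.41 and -0.67 (exact permutation p = 0.333).

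**Figure D5:**
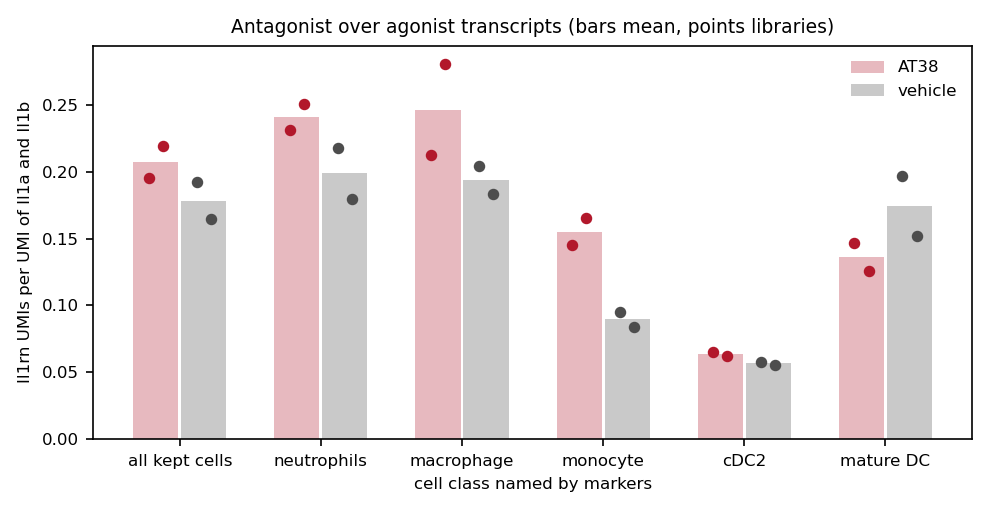
Il1rn UMIs per UMI of Il1a and Il1b together (vertical axis) in all kept cells and 5 classes, AT38 left of vehicle; bars are means and points libraries. The points of the groups do not overlap, AT38 is higher in all kept cells, neutrophil-like, macrophage-like, monocyte-like and cDC2-like cells, and lower in mature DC-like cells.

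The other genes of the pathway were described by lists, which were chosen with earlier results of these data known. Of 16 genes known to respond to interleukin 1 through NF-kB, 13 were tested in neutrophil-like cells, 6 were lower with AT38 and 0 higher, beside 3.86% of all genes tested called lower, and the median log2 fold change was -0.38, beside 0.0046 over all 8400 genes. The neutrophil attractant Cxcl3 stood at 976 and 861 CPM in AT38 and at 2231 and 1729 CPM in vehicle (-1.23 ± 0.11, edgeR adjusted p = 1.5e-05). The NF-kB inhibitors Tnfaip3 and Nfkbia fell by 0.58 and by 0.38, and the siderophore-binding Lcn2 by 0.51. In mononuclear phagocytes 3 of 14 tested were lower and 0 higher, beside 0.512% of all genes tested called lower, with a list median of -0.20 beside 0.0038 over all genes tested. These were Cxcl3 (-1.88 ± 0.13), Cxcl1 (-0.78 ± 0.13) and the cytokine Il6, at 69.4 and 82.9 CPM in AT38 and 151 and 162 CPM in vehicle (-1.05 ± 0.13, edgeR adjusted p = 0.00269).

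Over all kept cells 4 of these 16 genes were lower and 1 higher, beside 1.26% and 0.345% of all genes (list median -0.49, all genes 0.0011), and the gene that was higher, Ccl20, had 96.1% of its UMIs in 5 cells. In T cell-like cells Cxcl3 was the 1 of 11 tested that passed, beside 0.0966% of all genes called lower (-2.30 ± 0.40, edgeR adjusted p = 0.0125), at 1.37 to 11.1 CPM, and in dendritic-like cells 0 of 13 passed, with Cxcl2 at -0.39 and Lcn2 at -1.60.

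Among 11 receptor signalling genes, Irak3, an inhibitory protein of the receptor complex, was the 1 that passed in neutrophil-like cells. It stood at 77.9 and 85.9 CPM in AT38 and at 110 and 91.9 CPM in vehicle (-0.41 ± 0.13, edgeR adjusted p = 0.0497). Its list median was -0.15. The counts of 1 called lower in this list and the lists that follow stand beside 3.86% of all genes called lower in neutrophil-like cells, and a single call in lists this short is not read as a result about them. In mononuclear phagocytes 0 of 11 passed, with Irak3 at -0.76 ± 0.18 (edgeR adjusted p = 0.0733) and Myd88 at 0.28. Of the inflammasome and processing genes, Mefv, which encodes pyrin, was the 1 of 11 tested that passed in neutrophil-like cells (-0.47 ± 0.11, edgeR adjusted p = 0.00753), and in mononuclear phagocytes 0 of 14 passed, with Pycard at -0.40 and P2rx7 at 0.60.

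Of the other receptors of the family, Il18rap, an interleukin 18 receptor chain, was lower in neutrophil-like cells at 219 and 215 CPM in AT38 and 247 and 251 CPM in vehicle (-0.32 ± 0.10, edgeR adjusted p = 0.0471), 1 of 4 tested. In mononuclear phagocytes 0 of 5 passed. Of the other ligands, Il1f6 alone could be tested in neutrophil-like cells (-0.36 ± 0.40, not passed). Of 9 other myeloid cytokines under NF-kB control, 0 of 8 tested passed in neutrophil-like cells, with a median of 0.00055, and 0 of 8 in mononuclear phagocytes, where Il10 gave 0.60 ± 0.14 (edgeR adjusted p = 0.0584).

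The genes most like each member were found by Pearson r of log2(CPM + 1) over 14 classes in 4 libraries, 56 points that share libraries and depth, as a description. Il1b was most like the inflammasome sensor Nlrp3 (r = 0.96), Wfdc17 and Slc7a11. Il1rn was most like Cxcl2 (r = 0.96), Clec4e and Fth1, and Il1a was most like Cxcl2 (r = 0.94), Il1rn and G0s2. Il1f9 was most like Mrgpra2b, Wfdc21 and Stfa2l1 (r = 0.89, 0.88 and 0.87), and Il1r2 most like Cd80, Ccr1 and Ccrl2 (r = 0.88, 0.88 and 0.87). For Il18 these were Rab7b, Met and Ifi205 (r = 0.86, 0.83 and 0.83), and for Il18bp Gbp2, Dirc2 and Mcemp1 (r = 0.78, 0.78 and 0.77).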

How the data were processed

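Values are unnormalized UMI counts, which the authors obtained with Cell Ranger 3.1.0 against mm10, per the submitters' processing notes. The annotation release is not given in the sources used here. Members and lists were chosen with earlier results of these data known. Of 18001 barcodes, those with at least 500 UMIs, at least 200 genes and at most 10% mitochondrial UMIs were kept. Scrublet's own threshold marked 0 to 6 cells per library, so the highest scores were removed at 0.8% per 1000 barcodes (683 cells). Cells were clustered in scanpy 1.11.5 (2000 variable genes, 30 components, 15 neighbours, Leiden resolution 1), giving 29 clusters, and named by marker lists. Lymphoid clusters were clustered again into 16 sub-clusters. A gene was called at an adjusted p under 0.05 in edgeR 4.0.16 (TMM, robust quasi-likelihood, filterByExpr) on UMIs summed per library and class. The SE beside a fold change was derived as its absolute value divided by the square root of its F statistic. On simulated data with 200 genes planted at 2-fold, 69% were called in neutrophils and 77% in mononuclear phagocytes. There, 12 and 7 genes that were not planted were called as well. The simulated counts used a common dispersion for all genes of a class. DESeq2 1.42.0, other filters, cluster settings and libraries left out were the alternatives. All 9 members are named in every class, and of the other lists up to 4 genes by p.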

Additional observations from a re-analysis of the deposited data

Results flagged for a closer look

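The change with AT38 differed between neutrophil-like cells and mononuclear phagocytes, by the interaction test, for 4 genes of the lists. Over all 10714 genes tested, 1.53% were called. Of 9 members tested 1 was called, and of 14 interleukin 1 responsive genes 1 was called with a positive and 2 with a negative difference. The other lists, with 1, 5, 11, 14 and 8 genes tested, held 0 called genes. Il18bp, the interleukin 18 antagonist, differed by -1.02 on the log2 scale (edgeR adjusted p = 0.0142), with fold changes of -0.04 in neutrophil-like cells and 0.97 in phagocytes. This call did not hold in every fit with a library left out, as given above. Cxcl3 differed by 0.67, since its fold change was -1.23 in neutrophil-like cells and -1.88 in phagocytes. Tnfaip3 differed by -0.56, with -0.58 in neutrophil-like cells and -0.03 in phagocytes. Nfkbiz, an inhibitor of kappaB family protein, differed by -0.56 as well, with -0.37 in neutrophil-like cells and 0.22 in phagocytes.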

How the results depend on the processing

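Other settings moved counts of called genes by over 1.5 times, and the cause was not tested. Over all kept cells 233 genes were called, against 463 with DESeq2 (4 members), 745 with no filter on low counts, and 53 at equal class shares (0 members). In neutrophil-like cells 464 were called, against 216 with DESeq2, 104 with at least 500 genes per cell and 119 with no doublet removal, the last 2 with 1 member each. In these last 2 settings the class also took in a cluster with Cd8a and Cd8b1 among its leading genes, of 65 and of 254 cells. In mononuclear phagocytes 140 were called, against 432 with no filter, 223 with no doublet removal and 26 in monocyte-like cells alone (0 members), and 1 member was called with DESeq2 or up to 20% mitochondrial UMIs. In dendritic-like cells 4 were called, against 21 with DESeq2, 232 with no filter (1 member), 0 with up to 20% mitochondrial UMIs, 1 with at least 500 genes, 2 at resolution 0.5, and 23, 82 and 0 in cDC1-like, cDC2-like and mature DC-like cells alone. In T cell-like cells 15 were called, against 67 with no filter (1 member). For the interaction 164 were called, against 100 with macrophage-like cells alone.

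Leaving out 1 library gave 176 to 339 genes and 2 members over all kept cells, 361 to 483 genes and 1 to 3 members in neutrophil-like cells, 16 to 135 genes and 0 to 1 members in mononuclear phagocytes, 0 to 231 genes and 0 to 1 members in dendritic-like cells, 1 to 28 genes and 0 to 1 members in T cell-like cells and 114 to 337 genes and 0 to 2 members for the interaction. The counts that moved by over 1.5 times were 16 and 48 genes in mononuclear phagocytes without vehicle 1 and without vehicle 2, 231, 27, 0 and 2 in dendritic-like cells without AT38 1, AT38 2, vehicle 1 and vehicle 2, 28, 1, 5 and 26 in T cell-like cells in the same order, and 337 for the interaction without AT38 1. With 1 library left in a group, that library is assumed to vary like the other group. Chosen after seeing the data, the fits within single clusters are given above, and leaving out a macrophage-like cluster of low UMIs gave Il1f9 -1.22 (edgeR adjusted p = 0.0197) and Il18bp 0.98 (0.0140) in mononuclear phagocytes.

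Whether replicate numbers pair the libraries is not given in the labels. The correlation of deviations of same-numbered libraries was between -0.05 and 0.13 by class, and with 2 libraries per group it cannot settle this. With the replicate number as a block, 1 member was called over all kept cells (Il1f9 adjusted p = 0.0716), 497 genes in mononuclear phagocytes, where Il1b was called as well (adjusted p = 0.00531), 9 genes in dendritic-like cells, and 66 genes and 1 member, Il1b, in T cell-like cells.

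The Il18bp to Il18 balance over all kept cells (log2 difference 0.05) became -0.061 without the 5 cells with most UMIs and -0.28 as a mean of per-cell values. Without 1 library it ranged between -0.18 and 0.28, and in dendritic-like cells between -0.74 and 0.22. None of the member fold changes that turned sign had passed the test. With libraries at equal class shares, turned signs were Il1r2 0.19, Il1rn 0.16, Il1a 0.19 over all kept cells. With up to 20% mitochondrial UMIs, turned signs were Il18bp 0.031, Il18 -0.099 in neutrophil-like cells. With no doublet removal, turned signs were Il1r2 -0.014, Il18bp 0.00084 in neutrophil-like cells. With monocyte cells alone, turned signs were Il1r2 -0.22 in mononuclear phagocytes. With cDC1 cells alone, turned signs were Il1r2 -1.45 in dendritic-like cells. With cDC2 cells alone, turned signs were Il1rn 0.057 in dendritic-like cells. With mature DC cells alone, turned signs were Il1r2 -0.12, Il1b 0.12 in dendritic-like cells. With macrophage cells alone, turned signs were Il1r2 -0.068, Il1f9 -0.13, Il18 0.19, Il1rap -0.052 for the interaction. Leaving out 1 library in neutrophil-like cells gave Il1r2 -0.028 to 0.16, Il18 -0.051 to 0.58, Il18bp -0.19 to 0.10. Leaving out 1 library in mononuclear phagocytes gave Il1r2 -0.0079 to 0.11, Il1rn -0.20 to 0.24, Il1a -0.28 to 0.022. Leaving out 1 library in dendritic-like cells gave Il1r1 -0.028 to 0.67. Leaving out 1 library in T cell-like cells gave Il1a -0.53 to 0.14. Leaving out 1 library for the interaction gave Il1r2 -0.023 to 0.055, Il1f9 -0.055 to 0.10, Il1rn -0.094 to 0.32, Il1b -0.0072 to 0.36, Il18 -0.64 to 0.12, Il1rap -0.053 to 0.096, Il1r1 -0.94 to 2.48.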

Other observations

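A lymphoid sub-cluster of 80 cells, left out of the T cell-like class, was led by S100a8, S100a9, Il1b and Il1a. It held 41 and 8 cells in the AT38 libraries and 26 and 5 in the vehicle libraries, so the second value of each group rests on few cells. Its median was 10469.5 UMIs per cell, against 4272 in T cell-like and 2137 in neutrophil-like cells. Its best marker score was for neutrophils (3.942) and its second for CD8 T cells (0.863). Its Il1b level was 3377 and 7122 CPM in AT38 and 2738 and 4235 CPM in vehicle, with overlap between the groups. Its Il1r2 level was 1757 and 2846 CPM in AT38 and 1468 and 2196 CPM in vehicle. Whether these cells are doublets was not tested.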
